A study of Mus musculus with 6 samples.

Results

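Of the 7268 H3K27me3 peaks called on chromosomes 1 to 19 in Sox13lo γδ thymocytes, 1853 (25.5%) had no Sox13hi H3K27me3 peak within 5 kb. These Sox13lo-only peaks were chosen by position alone, from the peak lists of both populations. The Sox13hi list, with 14483 autosomal peaks, was 1.99 times as long as the Sox13lo list, so a Sox13lo peak had more chances to find a neighbour than a Sox13hi peak had. Their number and their distance from Sox13hi peaks follow from this choice and are given as a description. The score was used by no step of the choice, but every value of the H3K27me3 lists in this contrast is treated here as a description too.

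H3K27me3, trimethylation of lysine 27 on histone H3, is deposited by Polycomb repressive complex 2 and marks genes held silent, among them many developmental regulators. H3K4me3 marks active and poised promoters, and promoters that carry both marks are called bivalent. In developing T cells both marks are redistributed as precursors commit to a lineage. SOX13 is an HMG-box transcription factor of a subset of γδ T cells.

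The cells were γδ thymocytes of C57BL/6 mice that lack TCRβ and carry 1 ECFP knock-in allele of Sox13, so both populations share the TCRβ deletion and the reporter allele. CD24+ γδ cells were sorted into CFPhi (Sox13hi) and CFPlo/- (Sox13lo) populations, so the populations are defined by activity of the reporter. H3K27me3 and H3K4me3 were profiled by ChIP-seq in both, from 250000 cells for each histone mark, and SOX13 in Sox13hi only, from 1000000 cells. The sources used here do not give age, sex, the number of animals or whether animals were pooled. Each group has 1 library and therefore no replicate, so no p-value is given and the 95% exact binomial intervals cover counting error only, with peaks treated as independent. The depth of the libraries is unknown, and a difference in depth or threshold between the Sox13hi and Sox13lo libraries cannot be told apart from a difference between the cells. Genes near the peaks were not analysed here, since no mm9 gene positions were used. For the same reason the identity of the sorted cells was not checked against marker genes.

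The Sox13lo-only peaks were mostly small. Their median width was 200 bp, with quartiles of 150 and 300 bp, against 400 bp for the 5415 other Sox13lo peaks. The narrowest width in the list, 100 bp, was held by 289 of the 1853 Sox13lo-only peaks and 286 of the 5415 other peaks. Of the Sox13lo-only peaks 7 were wider than 1 kb, against 414 of the other peaks. Together the Sox13lo-only peaks covered 465 kb, against 2670 kb for the other peaks. The score, the authors' own value for each peak, had a median of 11.25 and ranged from 1.5 to 129.25, against a median of 30.25 and a maximum of 471 for the other Sox13lo peaks.

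Few Sox13lo-only peaks stood high in the list. When the Sox13lo list was cut into 10 deciles by score, they made up 61.5% of the bottom decile, 24.8% of the fifth and 1.24% of the top one, which held 9 of them. None was among the 100 highest-scoring Sox13lo peaks, 5 were among the highest 500 and 97 among the highest 2000. The mirror set, Sox13hi peaks with no Sox13lo peak within 5 kb, gave 1, 11 and 150 at those depths of its own list, where the other list was the shorter one. In all, 318 Sox13lo-only peaks reached the median score of the Sox13lo list, 23.25.

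**Figure D1:**
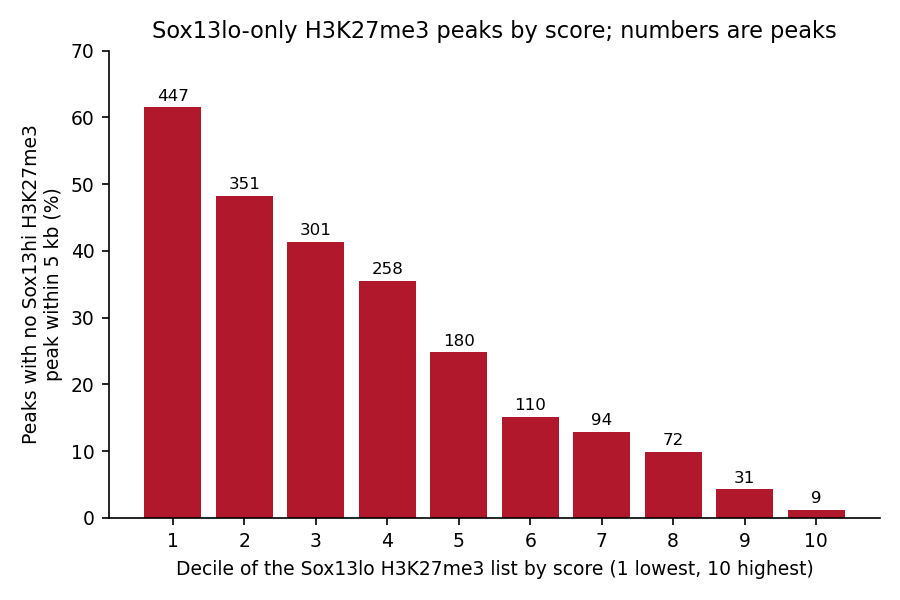
Share of Sox13lo H3K27me3 peaks on chromosomes 1 to 19 with no Sox13hi H3K27me3 peak within 5 kb (y axis, %), by decile of the authors' score within the Sox13lo list (x axis), with the number of such peaks above each bar. The bars fall from 61.5% at decile 1 to 1.24% at decile 10.

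The Sox13lo-only peaks were split at the 75th percentile of their own scores. The high-score group held 464 peaks of 18.5 or more, and the low-score group 1389 of 18.25 or less. At the split itself, 9 peaks at 18.5 stood against 6 at 18.25. The high-score group had a median score of 28 and a median width of 400 bp, and 106 of its peaks (22.8%) were 500 bp or wider. The low-score group had medians of 9 and 200 bp, and 1 peak as wide as 500 bp. All 7 peaks wider than 1 kb were in the high-score group. Of the high-score group, 81 peaks reached the upper quartile of the whole Sox13lo list, a score of 45.75.

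**Figure D2:**
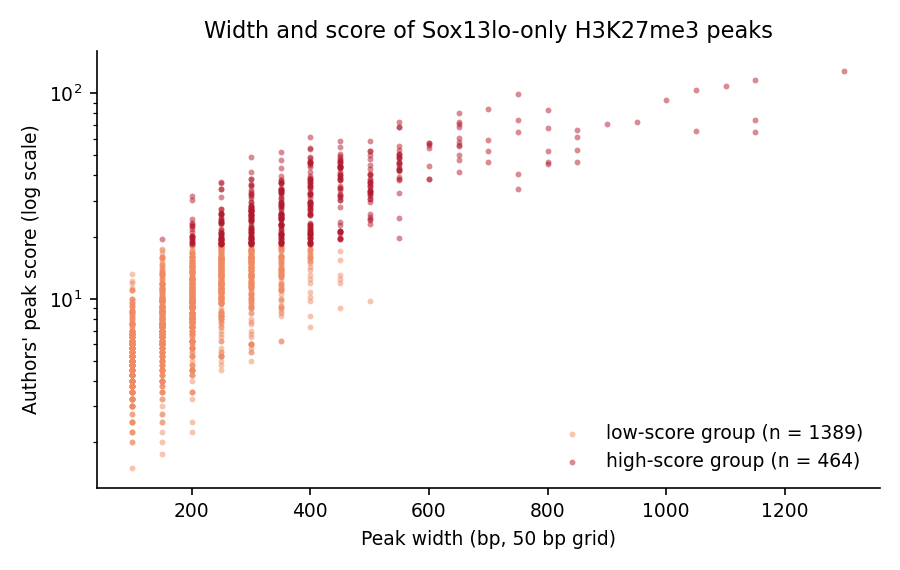
Width in bp (x axis) and score on a log scale (y axis) of each of the 1853 Sox13lo-only H3K27me3 peaks, with the high-score group in dark red and the low-score group in orange. All 7 peaks wider than 1 kb are in the high-score group, and 1 peak of the low-score group reaches 500 bp.

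The 10 highest-scoring Sox13lo-only peaks lay on 9 chromosomes, were 650 to 1300 bp wide, and 9 of them overlapped H3K4me3 in Sox13lo. Of the 795 other Sox13lo peaks that scored 75 or more, 89.2% overlapped H3K4me3 in Sox13lo and 91.4% in Sox13hi. The first of the 10, at chr9:58402201-58403499, had a score of 129.25 and ranked 209 in the Sox13lo list. It was also the widest of all Sox13lo-only peaks, at 1300 bp, and the nearest Sox13hi H3K27me3 peak was 65.2 kb away. An H3K4me3 peak lay wholly within it in each population, 1000 bp wide in Sox13lo and 900 bp wide in Sox13hi. This site thus had both marks in Sox13lo and H3K4me3 alone in the Sox13hi lists.

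The second, at chr8:28195951-28197099 (score 115.75, 1150 bp), had the same combination and also a SOX13 peak of 550 bp, which lay at 9.62% from the top of the SOX13 list by score. The third, at chr13:36060301-36061399 (108.5, 1100 bp), was 215 kb from the nearest Sox13hi H3K27me3 peak. Its H3K4me3 peak was 850 bp wide in Sox13lo and 1500 bp wide in Sox13hi. The peaks at chr9:64989151-64989899 (99, 750 bp), chr12:32243301-32244299 (92.5, 1000 bp) and chr7:152024301-152024949 (80.75, 650 bp) held H3K4me3 in both populations too. They stood closer to Sox13hi H3K27me3, at 16.6, 9.60 and 22.2 kb. Of the 10 peaks, 6 thus had H3K4me3 in both populations.

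At 3 of the 10 sites the Sox13lo list had both marks and the Sox13hi lists had neither. The peak at chr6:101326901-101327949 (103.5, 1050 bp) was the most remote of the 10. Its nearest Sox13hi H3K27me3 peak was 623 kb away and its nearest Sox13hi H3K4me3 peak 225 kb away, while Sox13lo had an H3K4me3 peak of 900 bp on it. At chr1:93241401-93242099 (84, 700 bp) the nearest Sox13hi peaks were 21.0 kb away for H3K27me3 and 20.7 kb away for H3K4me3. At chr5:93473901-93474699 (82.75, 800 bp) a Sox13hi H3K4me3 peak lay 0.151 kb beside the H3K27me3 peak, so its absence there rests on the overlap rule. The tenth, at chr4:4065101-4066249 (74.5, 1150 bp), had H3K4me3 in neither population. Its nearest H3K4me3 peak was 10.1 kb away in Sox13lo and 198 kb away in Sox13hi.

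Across all Sox13lo-only peaks H3K4me3 was uncommon. In Sox13lo, 276 of the 1853 peaks (14.9%, 13.3 to 16.6%) overlapped H3K4me3, against 38.2% of all 7268 Sox13lo H3K27me3 peaks. In Sox13hi, 277 (14.9%, 13.4 to 16.7%) overlapped it, against 40.2% of all. H3K4me3 was thus as frequent at these sites in the population without the H3K27me3 peak as in the one with it. The other Sox13lo peaks carried H3K4me3 in 46.2% and 48.8%, so the Sox13lo-only share was lower by 31.3 points in Sox13lo (difference -31.3, interval -33.4 to -29.1) and by 33.9 in Sox13hi (-33.9, -36.0 to -31.7). Of all Sox13hi H3K27me3 peaks, 22.2% overlapped H3K4me3 in Sox13hi. The choice of Sox13lo-only peaks leaves out the surroundings of these peaks, and its part in the lower shares was not tested.

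By population, 189 Sox13lo-only peaks (10.2%) had H3K4me3 in both, against 32.1% of all Sox13lo peaks. A further 87 (4.70%) had it in Sox13lo alone, against 6.14% of all, and 88 (4.75%) in Sox13hi alone, against 8.12%. The remaining 1489 (80.4%, 78.5 to 82.1%) had it in neither, against 53.7%. Among peaks with H3K4me3 in either population, 51.9% (46.7 to 57.2%) of the Sox13lo-only peaks and 71.3% (69.7 to 72.9%) of the other Sox13lo peaks had it in both.

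The high-score group carried H3K4me3 more often than the low-score group. In Sox13lo, 162 of its 464 peaks (34.9%, 30.6 to 39.4%) overlapped H3K4me3, against 114 of 1389 (8.21%, 6.82 to 9.78%), a difference of 26.7 points (22.1 to 31.4). In Sox13hi the shares were 36.4% and 7.78%, a difference of 28.6 points (24.0 to 33.4). In the high-score group 125 peaks (26.9%) had H3K4me3 in both populations, 37 (7.97%) in Sox13lo alone, 44 (9.48%) in Sox13hi alone and 258 (55.6%) in neither. In the low-score group these shares were 4.61%, 3.60%, 3.17% and 88.6%. Peaks of the high-score group are also wider. When only the centre of the H3K27me3 peak counted, a rule added after seeing the data, the difference in Sox13lo was 23.5 points.

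The share of Sox13lo-only peaks with H3K4me3 fell within 1 kb of the peak centre. At the centre of the H3K27me3 peak, Sox13lo H3K4me3 covered 31.5% of the high-score and 7.70% of the low-score group. At 1 kb from the centre the values were 5.17% and 1.84%, and at 2 kb 0.539% and 1.15%. Around the other Sox13lo peaks they were 39.4% at the centre, 12.3% at 1 kb and 5.21% at 2 kb. The Sox13lo H3K4me3 peaks themselves had a median width of 600 bp under Sox13lo-only peaks and 750 bp under the others. The median Sox13lo-only peak was 24.5 kb from the nearest Sox13lo H3K4me3 peak, 6.60 kb in the high-score and 32.7 kb in the low-score group. No H3K4me3 peak of either population lay within 50 kb of 493 Sox13lo-only peaks (26.6%, 24.6 to 28.7%), against 3.10% of the other Sox13lo peaks.

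**Figure D3:**
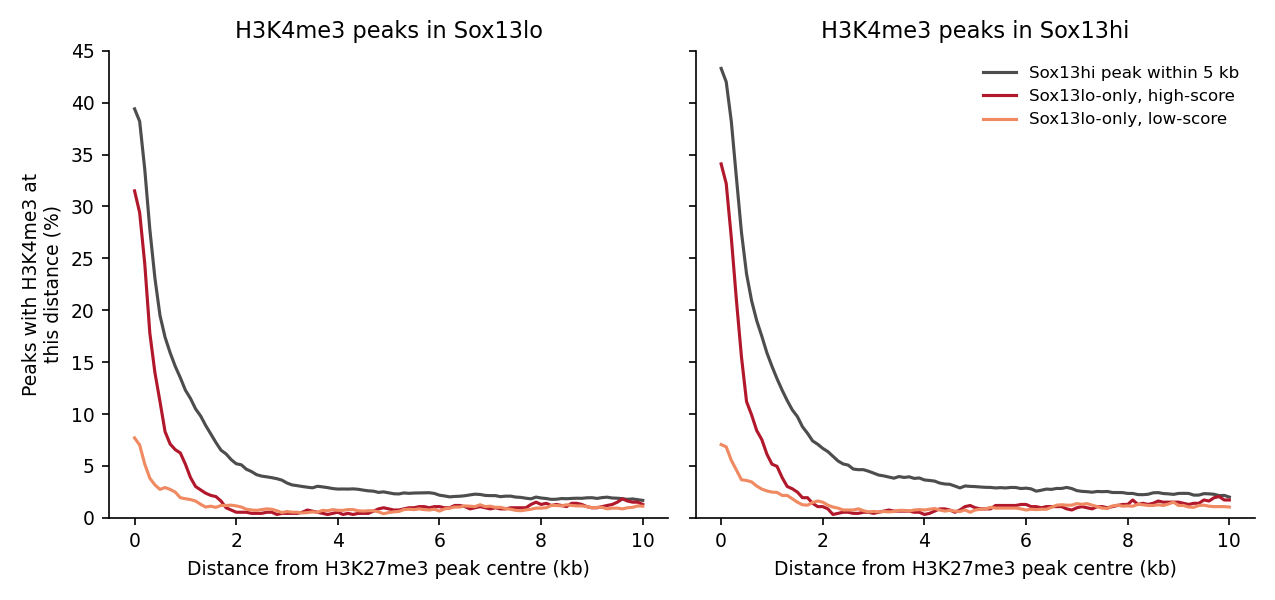
Share of H3K27me3 peaks covered by an H3K4me3 peak (y axis, %) at a given distance in kb from the H3K27me3 peak centre (x axis, mean of both sides), for H3K4me3 peaks in Sox13lo (left) and Sox13hi (right). The high-score group of Sox13lo-only peaks (dark red) starts at 31.5% and 34.1% and the low-score group (orange) at 7.70% and 7.06%, both below the other Sox13lo peaks (grey).

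Among Sox13lo-only peaks the share on Sox13lo H3K4me3 was 6.69%, 6.05% and 4.90% in the 3 lowest of 5 score classes, and 17.3% and 39.2% in the classes from 13.5 and from 20.75. Among the other Sox13lo peaks the share rose with score too, at 12.0%, 19.4%, 21.4%, 23.7% and 59.6% in the same 5 classes. Sox13lo-only and other Sox13lo peaks were compared within the same range of score. In the range from 9.5 to 13.25, 4.90% of 367 Sox13lo-only peaks and 21.4% of 510 other peaks held H3K4me3 in Sox13lo (difference -16.5 points, -20.8 to -12.0). The Sox13lo-only share was the lower in all 5 ranges that held about equal numbers of Sox13lo-only peaks, with intervals below 0 for both populations, although for Sox13lo in the lowest range the interval came close to 0 (-5.29 points, -11.3 to -0.00113). In the highest of the 5, from 20.75 up, the other peaks had higher scores (median 45.25 against 32.5). Within the high-score group, 4 narrower ranges were compared. From 18.5 to under 30 the Sox13lo H3K4me3 shares were 22.4% and 31.3% (-8.95 points, -14.7 to -2.66). From 30 to under 45 they were 44.4% and 50.5% (-6.11 points, -15.6 to 3.62), an interval that includes 0. From 45 to under 75 they were 53.9% and 65.5% (-11.5 points, -23.7 to 0.356). For H3K4me3 in Sox13hi the differences in these 3 ranges were -8.95 (-14.9 to -2.55), -4.38 (-14.0 to 5.32) and -15.6 points (-27.7 to -3.77). A lower share at Sox13lo-only peaks was thus resolved from 18.5 to under 30 for both populations and from 45 to under 75 for Sox13hi alone. The other peaks had the higher median score in these 3 ranges too, at 24 against 22, 36.75 against 36.12 and 57.25 against 52. The 9 peaks of 75 or more all held H3K4me3 in Sox13lo and 6 held it in Sox13hi, against 89.2% and 91.4% of 795 other peaks. The differences there were 10.8 points (-22.9 to 13.2) for Sox13lo and -24.8 points (-61.6 to 1.16) for Sox13hi, both with intervals that include 0.

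**Figure D4:**
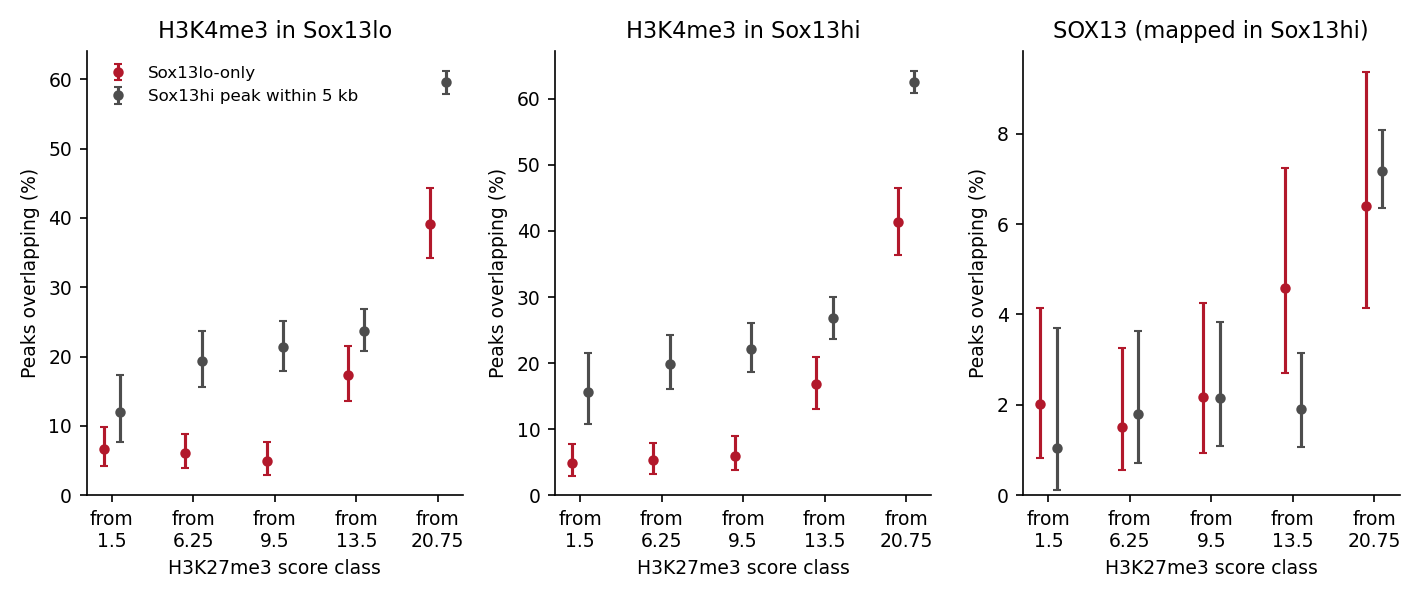
Share of H3K27me3 peaks overlapping H3K4me3 in Sox13lo, H3K4me3 in Sox13hi or SOX13 (y axes, %, from 0) in 5 classes of the authors' H3K27me3 score (x axes, lowest score of each class), with 95% exact binomial intervals as bars. Sox13lo-only peaks (dark red) lie below other Sox13lo peaks (grey) for H3K4me3 in every class, and the widest SOX13 gap is in the class from 13.5, with 4.59% against 1.91%.

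Where both populations had an H3K4me3 peak under a Sox13lo-only H3K27me3 peak, the H3K4me3 peaks could be paired. There were 181 such pairs. The Sox13hi peak was the wider in 115 (63.5%, 56.1 to 70.5%), the Sox13lo peak in 45, and 21 were equal, with medians of 900 and 750 bp. The same was seen where the H3K27me3 peak had a Sox13hi neighbour, with 61.1% of 1908 pairs wider in Sox13hi, a difference of 2.48 points (-5.30 to 9.84). Over all 14011 shared H3K4me3 peaks the share was 49.5%, lower than at Sox13lo-only sites by 14.0 points (6.52 to 21.1). No difference in this between Sox13lo-only and other Sox13lo sites was resolved.

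H3K4me3 in 1 population only marked 175 Sox13lo-only sites, the 87 and 88 above. The 3 with the highest scores are those on chromosomes 6, 1 and 5 described with the 10 highest-scoring peaks. The fourth, at chr14:56983601-56984149 (score 69, 550 bp), had a Sox13hi H3K4me3 peak of 300 bp, and the nearest Sox13lo H3K4me3 peak was 206 kb away. It is a site where the lists give H3K27me3 in Sox13lo and H3K4me3 in Sox13hi. The fifth, at chr6:55067601-55068449 (66.5, 850 bp), had an H3K4me3 peak of 400 bp in Sox13lo and none in Sox13hi within 78.9 kb. No Sox13hi H3K27me3 peak lay within 506 kb of it.

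Sites without H3K4me3 in either population reached scores of up to 74.5, against 129.25 for the highest-scoring Sox13lo-only peak. After the chromosome 4 peak described above came chr8:108860151-108860899 (74.5, 750 bp), which had a Sox13hi H3K4me3 peak 0.601 kb away but none in Sox13lo within 78.1 kb. The peak at chr6:116410551-116411199 (73, 650 bp) stood far from H3K4me3, 122 kb from the nearest peak in each population, and 122 kb from Sox13hi H3K27me3. Those at chr2:26056151-26057099 (72.5, 950 bp) and chr5:118722801-118723699 (71, 900 bp) each had a further Sox13lo H3K27me3 peak beside them, at 0.401 and 0.451 kb. Among the 5 widest Sox13lo-only peaks, chr2:162485401-162486549 (65.25, 1150 bp) and the chromosome 4 peak had no H3K4me3, and the first 3 of the highest-scoring list made up the others.

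SOX13 lay on few of the peaks. It was found at 62 of the 1853 Sox13lo-only peaks (3.35%, 2.57 to 4.27%), against 4.83% of all Sox13lo H3K27me3 peaks. It was present at 28 peaks of the high-score group (6.03%, 4.05 to 8.60%) and 34 of the low-score group (2.45%, 1.70 to 3.40%), a difference of 3.59 points (1.38 to 6.26). Split by H3K4me3 in either population, the difference between the groups was 2.94 points (-3.78 to 9.29) with it and 0.232 points (-1.35 to 2.84) without it, and neither was resolved. SOX13 went with H3K4me3. Of the 62 peaks, 36 (58.1%, 44.8 to 70.5%) had H3K4me3 in either population, and in the high-score group 23 of 28 did (82.1%, 63.1 to 93.9%). The share was 81.2% among all Sox13lo H3K27me3 peaks with SOX13 and 86.2% (81.6 to 89.9%) among the other Sox13lo peaks with SOX13. Split by H3K4me3, 9.89% of Sox13lo-only peaks with it and 1.75% without it held SOX13, against 8.29% and 1.66% of the other Sox13lo peaks. Within these groups the differences between Sox13lo-only and other peaks were 1.60 points (-1.45 to 5.27) and 0.0878 points (-0.758 to 1.02). The overall share was lower than the 5.34% of other Sox13lo peaks by 1.99 points (-1.99, -2.99 to -0.899), and within groups of like H3K4me3 no difference was resolved. The other way, in the score class from 13.5 to 20.5, SOX13 was at 4.59% of Sox13lo-only and 1.91% of other peaks (2.68 points, 0.426 to 5.47), and in the other 4 classes the interval of the difference included 0.

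The SOX13-bearing peaks with the highest scores mostly held H3K4me3 in both populations. After the chromosome 8 site described above came chr15:36140001-36140649 (68.5, 650 bp) and chr11:109582301-109583099 (68, 800 bp). On the latter the H3K4me3 peak was 650 bp wide in Sox13lo and 1250 bp in Sox13hi, and its SOX13 peak was 7.14% from the top of the SOX13 list. At chr4:140566351-140567199 (53.25, 850 bp) SOX13 sat on H3K27me3 with H3K4me3 in Sox13lo, although SOX13 was mapped in Sox13hi cells, where the nearest H3K4me3 peak was 21.3 kb away. At chr5:106397751-106398099 (51.75, 350 bp) all 3 overlapping peaks were 450 to 550 bp wide, and the SOX13 peak was 4.71% from the top of its list.

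Sox13lo-only peaks rarely formed runs. With gaps of at most 5 kb, 220 of them (11.9%, 10.4 to 13.4%) stood in 104 runs, 92 of 2 peaks and 12 of 3, and no run was longer. Of all Sox13lo H3K27me3 peaks 54.2% had another within 5 kb, with runs of up to 14. The choice takes out of a run each peak that has a Sox13hi neighbour, and its part in this difference was not tested. Counting neighbours of any kind, 241 of the 1853 had another Sox13lo H3K27me3 peak within 5 kb. Runs spanned 0.300 to 5.65 kb, with a median of 1.48 kb. Of the high-score group 96 peaks (20.7%, 17.1 to 24.7%) were in runs, against 124 of the low-score group (8.93%, 7.48 to 10.6%), and 73 of the 104 runs held at least 1 peak of the high-score group. H3K4me3 of either population lay on at least 1 peak in 51 of the 104 runs, and no count for runs of the other Sox13lo peaks is given here. By peak, Sox13lo H3K4me3 lay on 20.5% of Sox13lo-only peaks in runs and 14.1% of those outside runs. For Sox13hi H3K4me3 the shares were 26.8% and 13.3%. Peaks of the high-score group made up 43.6% and 22.5% of these peaks.

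The 5 runs with the most peaks and the highest summed scores differed in their marks. On chromosome 9 the run from 64988551 to 64990649 held the high-scoring peak described above (score 99) with flanking peaks of 12.75 and 20.75. The middle peak lay on H3K4me3 in both populations, the first on Sox13hi H3K4me3 only and the third on none. The run on chromosome 13 from 48356151 to 48358299 likewise had its highest peak, of 70.75, in the middle and on H3K4me3 in both populations. Its flanks scored 7.5 and 17, the third peak also held SOX13 and Sox13lo H3K4me3, and Sox13hi H3K27me3 was at least 85.2 kb away. On chromosome 10 the 3 peaks from 126485101 to 126488049 scored 33, 24.5 and 41.25 and had no H3K4me3 within 5.60 kb. Those on chromosome 2, from 26053651 to 26057749, scored 6.5, 72.5 and 17.25 and had no overlapping H3K4me3. In the widest of the 5, on chromosome 9 from 74696551 to 74702149, the first of 3 peaks lay on H3K4me3 in both populations. With gaps of up to 20 kb the longest run was 5 peaks over 15.5 kb on chromosome 4, from 115625851 to 115641349.

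Most Sox13lo-only peaks were far beyond the 5 kb limit. The nearest Sox13hi H3K27me3 peak was 49.1 kb away at the median, with quartiles of 16.9 and 126 kb. It was 5 to 10 kb away for 260 peaks (14.0%), over 20 kb for 71.3%, over 100 kb for 578 (31.2%) and over 500 kb for 53. The median was 43.4 kb in the high-score and 52.3 kb in the low-score group. Just outside the limit, peaks at chr11:96101351-96101699, chr13:4697351-4697499 and chr19:41813001-41813299 were 5.001 kb from a Sox13hi peak, with scores of 11.25, 3.25 and 18.75. Ends were used as in the lists, without the last base of the 50 bp grid. The place of 4 Sox13lo-only peaks at 5.001 kb rests on this. Just inside it, peaks at chr10:120507201-120507499, chr11:83630501-83630699 and chr2:25166501-25167049 were 4.951 kb away, with scores of 13.75, 14 and 49.75. In all, 220 Sox13lo-only peaks (11.9%, 10.4 to 13.4%) had no other peak of any of the 5 lists within 50 kb, 19 (4.09%) of the high-score and 201 (14.5%) of the low-score group. None of the 5415 other Sox13lo peaks could be so isolated, since by the choice each has a Sox13hi H3K27me3 peak within 5 kb.

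**Figure D5:**
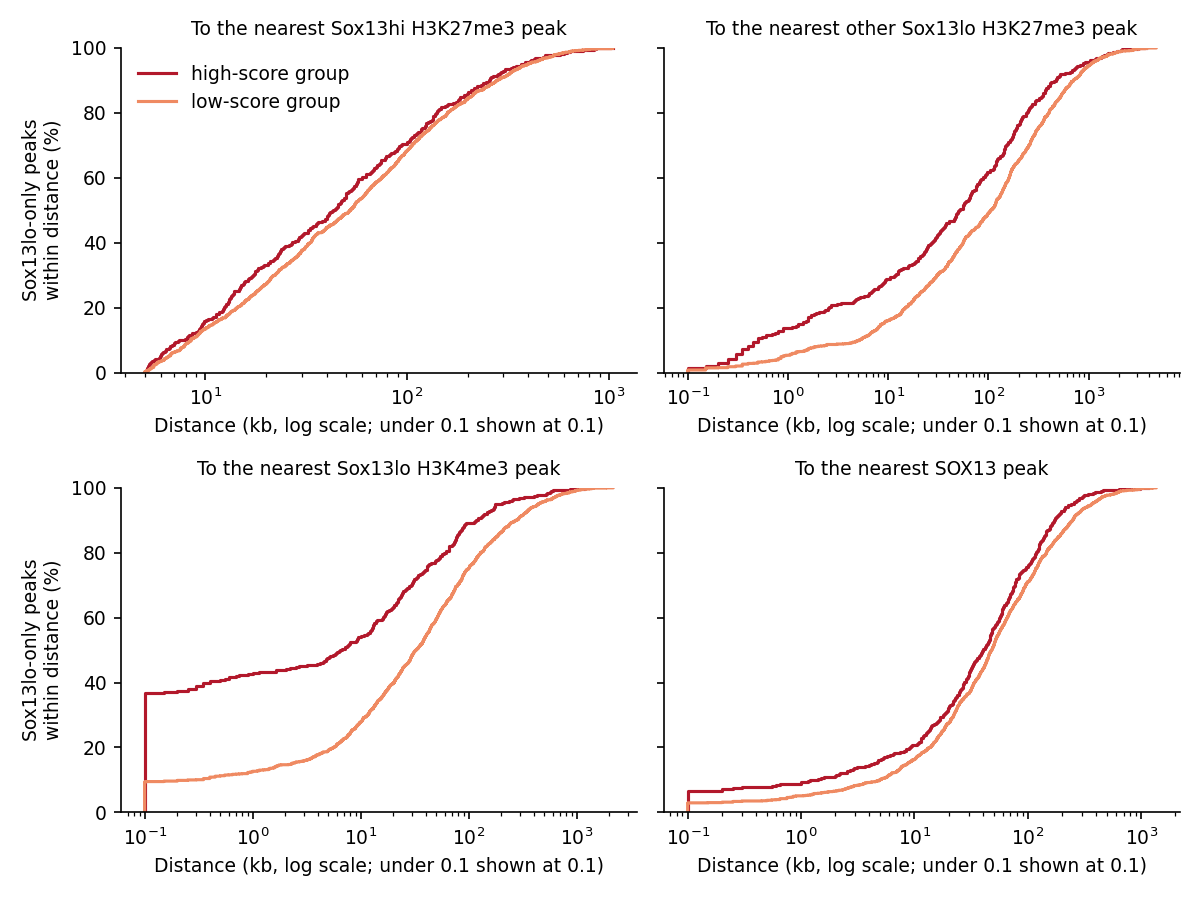
Cumulative share of Sox13lo-only H3K27me3 peaks (y axes, %) by distance in kb on a log scale (x axes) to the nearest Sox13hi H3K27me3, other Sox13lo H3K27me3, Sox13lo H3K4me3 and SOX13 peak, for the high-score (dark red, n = 464) and low-score (orange, n = 1389) groups. The curves run close together for Sox13hi H3K27me3 and SOX13. They run apart for Sox13lo H3K4me3, with medians of 6.60 and 32.7 kb, and for other Sox13lo H3K27me3, with medians of 51.9 and 105 kb.

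By chromosome, the Sox13lo-only share of Sox13lo H3K27me3 peaks ran from 19.2% on chromosomes 15 (15.1 to 23.8%) and 19 (14.4 to 24.7%) to 32.7% on chromosome 6 (27.9 to 37.7%). The intervals of chromosomes 15 and 6 were separate. These were the extremes of 19 chromosomes, and the numbers of peaks were 64 of 334 and 121 of 370.

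The mirror set was compared last. As deposited, it held 8210 of the 14483 autosomal Sox13hi H3K27me3 peaks (56.7%), and 7.10% of these overlapped Sox13hi H3K4me3 and 1.49% SOX13, both below the Sox13lo-only shares. The lengths of the lists enter this comparison. With the Sox13hi list limited by score to the length of the Sox13lo list, there were 2312 Sox13lo-only and 2561 Sox13hi-only peaks. This Sox13lo-only set is larger than the 1853 peaks above, since it adds peaks whose Sox13hi neighbour was cut from the list. H3K4me3 in Sox13lo was then at 17.0% and 15.7% (difference 1.26 points, -0.844 to 3.38), H3K4me3 in Sox13hi at 17.6% and 16.6% (0.926, -1.22 to 3.08), and SOX13 at 3.20% and 2.54% (0.663, -0.303 to 1.65). All 3 intervals include 0. H3K4me3 in either population was at 22.5% and 19.1% (3.44 points, 1.13 to 5.75), an interval above 0. H3K4me3 in both populations was at 12.1% and 13.3% (-1.25 points, -3.14 to 0.656). H3K4me3 in 1 population only was more frequent at Sox13lo-only peaks. It was found in Sox13lo alone at 4.93% against 2.42% (2.51 points, 1.43 to 3.62) and in Sox13hi alone at 5.49% against 3.32% (2.17 points, 0.995 to 3.38). Scores of the 2 lists are not on a known common scale. The lowest score was 14.75 in this Sox13hi-only set and 1.5 in the Sox13lo-only set.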

How the data were processed

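The deposited data are 5 peak lists, 1 per ChIP library, with a score for each peak that is the authors' own value. Per the submitters' processing notes the build is mm9, and the sources used here give no definition of the score, no aligner, no peak caller and no threshold. Per the labels' protocols, cells were fixed with 1% formaldehyde and libraries were amplified for 17 cycles. The input library was not analysed here. Scores are close to multiples of 0.25, were rounded to them, and were used within a list only. Printed starts count from 1, and ends stand as in the lists. Widths count the last base of the 50 bp grid, and distances run from the end of one peak to the start of the next. Overlap means at least 1 bp.

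The Sox13lo-only peaks, the rules and the alternatives were chosen with earlier results of these data known. The high-score group holds peaks at or above the 75th percentile of the score of the Sox13lo-only peaks, and deciles split tied scores by list order. The rule for named regions took the 10 highest-scoring and 5 widest peaks, the 5 largest runs, the 5 highest-scoring peaks without H3K4me3, with SOX13 and with H3K4me3 in 1 population only, and 3 peaks at each side of the 5 kb limit. The narrower score ranges above 18.5, the pairs of H3K4me3 peaks and the rule that counts only the peak centre were added after seeing the data. Intervals are exact (Clopper-Pearson), and for differences Newcombe-type, built from them. Group comparisons had 1 library each, so no test was run.

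Python 3.11.15, NumPy 2.4.6, pandas 2.3.3, SciPy 1.17.1 and matplotlib 3.10.9 were used. The distance code returned the planted gap for 685 of 685 Sox13lo H3K27me3 peaks that were given a simulated partner. Its 4 counts on the real lists equalled those of bedtools 2.31.1.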

Additional observations from a re-analysis of the deposited data

How the results depend on the processing

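No paired analysis was possible because no group has more than 1 library, which also leaves no replicate to drop. Of 57 recomputed values 34 stayed within the main value's interval (for the median width, one from order statistics) or within 1.5 times the count, 23 moved and none changed sign. The number of Sox13lo-only peaks was 3707 when only overlapping peaks counted as neighbours and 326 in the top 50% of the Sox13lo list, with the median taken over all chromosomes (318 reached the median over chromosomes 1 to 19). With the overlap limit, H3K4me3 was at 18.0% in Sox13lo and 19.4% in Sox13hi, SOX13 at 2.54%, and 26.0% stood in runs. In the top 50% of the Sox13lo list, H3K4me3 was at 41.7% and 44.2%, SOX13 at 7.06%, the median width was 400 bp and 9.51% stood in runs. With the Sox13hi list limited to equal length, H3K4me3 was at 17.0% and 17.6%, and 17.1% stood in runs. In the top 50% of the H3K4me3 and SOX13 lists, H3K4me3 was at 5.29% and 6.75%, and SOX13 at 2.21%. Fewer peaks to overlap can only lower these shares. With these shorter lists the high-score group exceeded the low-score group by 9.62 points in Sox13lo H3K4me3. That difference was 33.9 points with a limit of 20 kb and 46.4 with the split at the 75th percentile of the whole Sox13lo list. Runs held 15.1% with a limit of 1 kb, and 10.4% and 15.8% with gaps of at most 2 and 20 kb. Where no reason is given, the cause was not tested. The centre rule was chosen after seeing the data. Depth is unknown, so it cannot be said how many peaks absent from the Sox13hi list fell below its threshold.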

Other observations

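Sex chromosomes were left out of the Sox13lo-only peaks. On chromosome X, 20 of 45 Sox13lo H3K27me3 peaks (44.4%) had no Sox13hi peak within 5 kb, with a highest score of 52. On chromosome Y it was 16 of 82 (19.5%), with a highest score of 10.5.

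Sox13lo peaks that had a Sox13hi H3K27me3 peak within 5 kb but did not overlap it were about as many as the Sox13lo-only peaks, 1854. They lay between the Sox13lo-only and the overlapping peaks in score (median 17.75), width (median 300 bp) and H3K4me3, with 21.0% (19.2 to 23.0%) on Sox13lo H3K4me3. SOX13 did not follow that order. It was at 1.73% (1.18 to 2.43%) of them, below the 3.35% of Sox13lo-only and the 7.22% (6.39 to 8.12%) of overlapping peaks.

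Where a Sox13lo-only peak overlapped H3K4me3 in Sox13lo, it lay wholly inside the H3K4me3 peak in 79.8% of cases in the low-score and 48.8% in the high-score group, against 40.0% of the other Sox13lo peaks. Over all peaks of each group, the median H3K27me3 width was 200 bp in the low-score group. It was 400 bp in the high-score group and at the other Sox13lo peaks. The shares lying wholly inside were not compared among peaks of like width, and the part of width in them was not tested. Overlap itself was compared by width. From 300 to 450 bp, 17.0% of Sox13lo-only and 37.2% of other Sox13lo peaks lay on Sox13lo H3K4me3. The Sox13lo-only share was the lower in every width class, though the intervals overlapped from 500 bp up.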
